A study of Mus musculus with 11 samples.

Results

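The claudins of the colon were described from 10 genes of the deposited count table, Cldn1, Cldn2, Cldn3, Cldn4, Cldn5, Cldn7, Cldn8, Cldn12, Cldn15 and Cldn23, which were picked by gene name out of 43346 genes. All 10 passed the filter on low counts, which kept 19863 genes for testing. RNA was sequenced from the colon of 5 germ-free and 6 humanized mice, all male Swiss Webster animals aged 8 to 10 weeks and housed singly in isolators. Humanized mice came from the germ-free colony and were gavaged at an age of 4 to 5 weeks with 300 μL of stool suspension, and germ-free mice stayed without microbes. Every humanized mouse carried the microbiota of the same human donor, so colonization as such and the stool of this donor cannot be told apart. Between 49097005 and 64148538 reads per germ-free mouse and between 39125290 and 54219854 per humanized mouse were counted on genes. Tissue was labelled as colon, and all 12 epithelial marker genes examined (among them Epcam, Krt8, Cdx1 and Cdx2) were detected in every mouse.

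Claudins are membrane proteins of the tight junction, the belt of contacts near the apical side of epithelial and endothelial cells. Their extracellular loops meet those of the neighboring cell and set which solutes can pass between the cells. Some claudins, such as claudin-1, claudin-3, claudin-4, claudin-5 and claudin-8, are known as sealing claudins, whereas claudin-2 and claudin-15 form pores for small cations and water. In the intestine claudin-2 is known mainly from crypts, and claudin-4 and claudin-23 mainly from the differentiated cells at the luminal surface.

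Cldn4 and Cldn23 were higher in humanized mice, and none of the 10 claudins was called lower (edgeR's exact test with Benjamini–Hochberg correction, FDR below 0.01). Log2-fold changes (LFC) are humanized over germ-free. Thus 2 of the 10 claudins were called, beside 19.3% of all 19863 genes tested (9.2% higher and 10.1% lower), so the number of calls among the claudins was close to that of the table as a whole. The median LFC of the 10 claudins was 0.00, beside 0.01 over all genes tested, with 5 claudins above 0 and 5 below. In a whole-tissue sample, a lower value can come from fewer cells of a type or from less RNA per cell, and these cannot be told apart here.

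Cldn4 and Cldn3 lie next to each other on chromosome 5 of the mouse genome build mm10 (GRCm38) with 39279 bases between them, and each consists of 1 exon. Cldn4 lies on the minus strand from 134945126 to 134946934, and Cldn3 lies on the plus strand from 134986214 to 134987472. Cldn4 was called and Cldn3 was not, so the 250 bases before the start of each gene are shown to let the neighbors be compared. The sequences are from RefSeq (GRCm38.p6), at chr5:134946935-134947184 on the minus strand for Cldn4 and at chr5:134985964-134986213 on the plus strand for Cldn3. Capitals mark every match on either strand to TGANTCA, the site of AP-1, or to CAGGTG, the E-box that Snail and Zeb factors bind.
Cldn4: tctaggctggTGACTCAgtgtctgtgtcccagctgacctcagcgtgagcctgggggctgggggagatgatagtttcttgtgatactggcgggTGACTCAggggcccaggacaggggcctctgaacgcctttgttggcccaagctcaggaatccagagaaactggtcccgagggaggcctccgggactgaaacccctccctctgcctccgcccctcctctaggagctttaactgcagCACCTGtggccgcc
Cldn3: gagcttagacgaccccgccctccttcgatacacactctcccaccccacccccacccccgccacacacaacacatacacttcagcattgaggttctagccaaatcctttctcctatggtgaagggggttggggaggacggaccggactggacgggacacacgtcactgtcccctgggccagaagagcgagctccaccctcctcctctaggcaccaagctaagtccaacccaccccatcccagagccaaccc
The sequence before Cldn4 held 2 matches to TGANTCA and 1 to CAGGTG, and that before Cldn3 held none of either. With the 50 bases after the start included, Cldn4 held 2 matches to CAGGTG and Cldn3 held 1.

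Windows of 300 bases, 250 before and 50 after a start, were on hand for 8 of the 10 claudins in 11 windows, and Cldn23, which was called, and Cldn8 are not among them. TGANTCA was found in 2 of the 11 windows, those of Cldn4 and Cldn15, and in 7.81% of all 32851 windows. Of these claudins, Cldn4 was called and Cldn15 was not. CAGGTG was found in 3 of the 11 windows, of Cldn3, Cldn4 and Cldn7, and in 20.2% of all windows. The GC box GGGCGG was found in 8 of the 11 windows and in 35.7% of all windows. AACCGGTT, the site of grainyhead-like factors, was in none of these 11 windows and in 0.146% of all windows. The motifs were searched on both strands, and a match describes letters and not binding.

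Reads of Cldn3 and Cldn4 can be told apart in the count table although their coding sequences are similar. The longest identical run between any of the 10 claudins was 35 bases, within the coding exons of this pair, at chr5:134986655-134986689 (plus strand) in Cldn3 and chr5:134946498-134946532 (minus strand) in Cldn4. It is shown since a read that lay inside it alone could not be assigned.
Shared run of Cldn3 and Cldn4: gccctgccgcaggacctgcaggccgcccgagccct
The reads were 101 bases long, and no stretch of that length in any of the 10 claudins occurred in another annotated gene. Cldn3 shares 40 exon bases (3.18% of its exons) with Wbscr25 on the opposite strand, and no exon of the other 9 claudins overlapped an exon of another gene.

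Cldn4 was the gene called among the sealing claudins Cldn1, Cldn3, Cldn4, Cldn5 and Cldn8. Expression is given as TMM-normalized RPKM, that is reads scaled to the length of the gene and the size of the library, which allows levels of different genes to be compared. The values of Cldn4 were 12.8, 19.8, 11.7, 14.9 and 13.9 RPKM in the germ-free group and 33.7, 25.9, 30.5, 28.8, 43.6 and 40.3 RPKM in humanized mice. Every humanized mouse was above every germ-free mouse. The mean was 14.6 ± 3.12 RPKM (SD, n = 5) in germ-free and 33.8 ± 6.87 RPKM (n = 6) in humanized mice, an LFC of 1.21 with a standard error of 0.16, or 2.31-fold with a 95% interval from 1.82 to 2.94 (FDR = 2.81e-11). An exact permutation test of the RPKM values, two-sided, gave p = 0.00433, the smallest that splitting the 11 mice into 5 and 6 can give. Claudin-4 and claudin-3 are the receptors of the enterotoxin of Clostridium perfringens.

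Cldn23 encodes a claudin of the luminal intestinal epithelium that strengthens the barrier and binds claudin-3 and claudin-4. It lies on chromosome 8 from 35824709 to 35826559 on the minus strand. Its values were 21.4, 25.2, 22.1, 22.9 and 25.2 RPKM in the germ-free group and 47.4, 46.4, 46.1, 47.6, 65.3 and 49.4 RPKM in humanized mice. The groups did not overlap, and 5 of the 6 humanized mice lay between 46.1 and 49.4 RPKM, with humanized mouse 5 above them. The mean was 23.4 ± 1.76 RPKM (SD, n = 5) against 50.4 ± 7.39 RPKM (n = 6), an LFC of 1.11 with a standard error of 0.09, or 2.16-fold with a 95% interval from 1.87 to 2.49 (FDR = 2.79e-23, exact permutation test p = 0.00433). In edgeR's quasi-likelihood test, whose fit gave the standard errors and intervals, the FDR was 2.08e-05 for Cldn23 and 0.000326 for Cldn4. Without humanized mouse 5 the LFC of Cldn23 was 1.02 (FDR = 1.52e-41) and that of Cldn4 was 1.12 (FDR = 1.58e-11), both in the exact test. Groups without overlap were seen for these 2 claudins, both higher, and for 18.4% of all genes tested (8.67% higher and 9.73% lower).

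**Figure D1:**
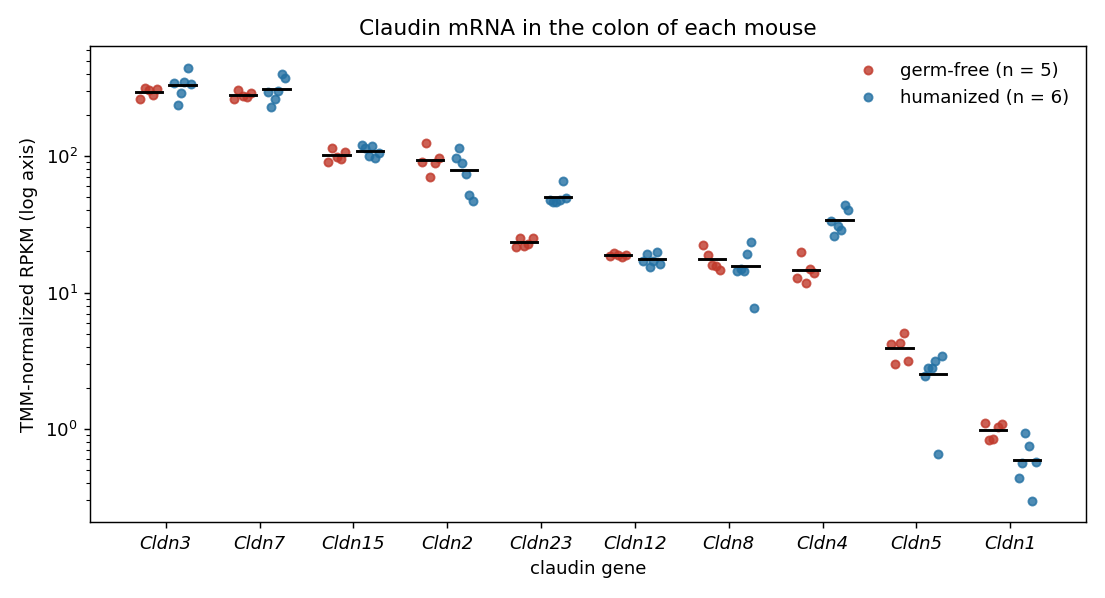
TMM-normalized RPKM (log axis) of the 10 claudin genes in each of 5 germ-free and 6 humanized mice, with a bar at the group mean. The points of the groups are apart for Cldn23 and Cldn4 and overlap for the other 8 genes, and levels range from 0.298 to 1.11 RPKM for Cldn1 to 229 to 446 RPKM for Cldn3 and Cldn7.

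Cldn3 and Cldn7 were the most abundant claudins in both groups. Cldn3 encodes a sealing claudin, and Cldn7 encodes a claudin that is abundant along the lateral membrane of intestinal cells and is needed for an intact mucosa. The values of Cldn3 were 261, 315, 304, 279 and 313 RPKM in the germ-free group, and in humanized mice they ran from 237 over a median of 340.2 to 446 RPKM. The groups overlapped, with 4 humanized mice above the highest germ-free mouse and 1 below the lowest. The LFC was 0.18 with a standard error of 0.13 (95% interval −0.10 to 0.46, FDR = 0.357). Cldn7, on chromosome 11 from 69964779 to 69967885, had 264, 306, 278, 272 and 290.4 RPKM in the germ-free group and 229 to 398 RPKM, with a median of 297, in humanized mice. Here 2 humanized mice lay above and 2 below the range of germ-free mice. The LFC was 0.13 with a standard error of 0.13 (95% interval −0.15 to 0.41, FDR = 0.514). For both genes the lowest humanized value was that of mouse 2 and the highest that of mouse 5.

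Cldn8 encodes a sealing claudin of the distal colon that limits the backflow of sodium and is induced by aldosterone. It lies on chromosome 16 from 88560828 to 88563183. Its values were 22.5, 18.8, 16.0, 15.6 and 14.5 RPKM in the germ-free group, and 7.66 to 23.5 RPKM with a median of 14.5 in humanized mice. Humanized mice spanned the whole germ-free range, with mouse 6 lowest and mouse 5 highest. The LFC was −0.17 with a standard error of 0.22 (95% interval −0.65 to 0.31, FDR = 0.643), and the interval did not reach the LFC of Cldn4.

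Cldn1, on chromosome 16 from 26356642 to 26371841, encodes the claudin that is needed for the water barrier of the skin, and it had the lowest level of the 10 claudins. Its values were 1.11, 0.83, 0.84, 1.04 and 1.09 RPKM in the germ-free group and 0.298 to 0.936 RPKM, with a median of 0.568, in humanized mice. In humanized mice 5 of 6 values lay below the lowest germ-free value, and mouse 3 lay within the germ-free range. The LFC was −0.73 with a standard error of 0.25 (95% interval −1.26 to −0.20), and the FDR of 0.0262 did not pass the threshold of 0.01. Without humanized mouse 3 the LFC was −0.91 and passed it (FDR = 0.0017). These values rest on 141 to 248 counts per germ-free mouse and 46 to 144 per humanized mouse. Humanized mouse 3 had the highest sums of fibroblast and endothelial markers in its group, and their part in the values of Cldn1 was not tested.

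The pore-forming claudins were not called. Cldn15, on chromosome 5 from 136966616 to 136975858, encodes the pore-forming claudin that returns sodium to the lumen for nutrient uptake. Its values were 90.1, 116, 98.9, 95.4 and 107.5 RPKM in the germ-free group and 96.6 to 119.8 RPKM, with a median of 110.3, in humanized mice. The ranges overlapped, and the LFC was 0.11 with a standard error of 0.08 (95% interval −0.07 to 0.29, FDR = 0.426). Cldn2, on chromosome X from 139800828 to 139811386, encodes the pore-forming claudin of leaky epithelia, which is raised in inflamed intestine. It had 90.3, 125, 70.9, 88.3 and 96.3 RPKM in the germ-free group and 47.0 to 114 RPKM, with a median of 81.6, in humanized mice. Mice 5 and 6 of the humanized group lay below the germ-free range, and the other 4 lay within it. The LFC was −0.26 with a standard error of 0.22 (95% interval −0.74 to 0.22, FDR = 0.435).

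Cldn12, on chromosome 5 from 5505015 to 5514958, encodes a claudin linked to the passage of calcium between cells. It varied least among germ-free mice, at 18.6, 19.6, 18.7, 18.2 and 18.8 RPKM, and lay between 15.5 and 19.98 RPKM with a median of 17.1 in humanized mice. The ranges overlapped, with 4 humanized mice below the germ-free range and 1 above it. The LFC was −0.10 with a standard error of 0.07 (95% interval −0.25 to 0.05, FDR = 0.389).

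Cldn5 encodes the claudin of endothelial cells and seals the blood–brain barrier. It lies on chromosome 16 from 18776847 to 18778260. Its values were 4.18, 2.97, 4.26, 5.04 and 3.13 RPKM in the germ-free group and 0.655 to 3.42 RPKM, with a median of 2.80, in humanized mice. In humanized mice 4 of 6 values lay below the germ-free range, and mouse 5 was far below the next value of 2.45 RPKM. The LFC was −0.62 with a standard error of 0.32 (95% interval −1.31 to 0.06, FDR = 0.157), and without humanized mouse 5 it was −0.42 (FDR = 0.0821). The LFC of all 10 endothelial markers (Pecam1, Cdh5, Tek, Kdr, Tie1, Emcn, Erg, Vwf, Plvap and Egfl7) was below 0 with a median of −0.89, none was called, and their summed level ran from 164 to 192 CPM (counts scaled to the size of the library) in the germ-free group and from 21.9 to 156.5 CPM in humanized mice, lowest in mouse 5. Relative to this sum in the same mouse, Cldn5 was at 3.08 ± 0.49% in germ-free and 3.80 ± 0.81% in humanized mice (exact permutation test, two-sided p = 0.134).

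**Figure D2:**
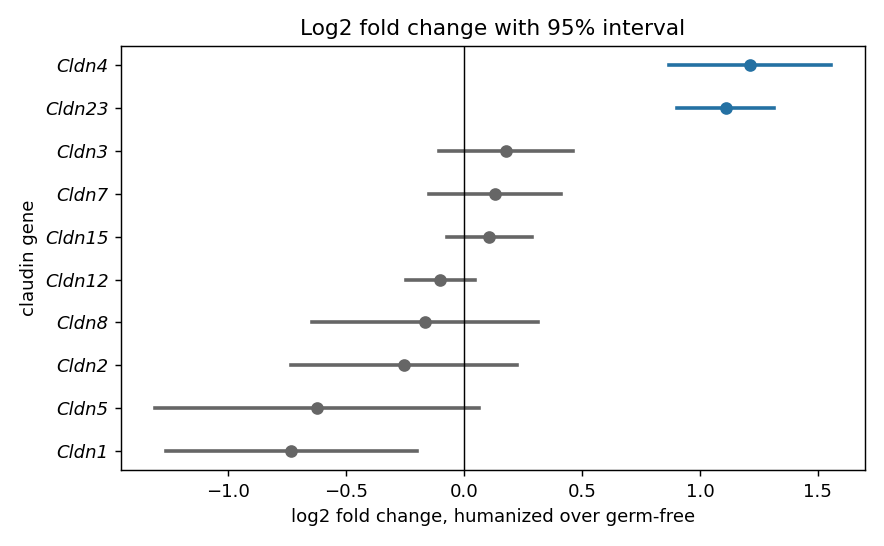
LFC of each claudin gene (point) with its 95% interval (line), humanized over germ-free mice. Cldn4 and Cldn23, in blue, are the genes with FDR below 0.01, the intervals of 7 genes include 0, and that of Cldn1 lies below 0 without reaching the FDR threshold.

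The order of levels was compared within each group. In germ-free mice the order was Cldn3, Cldn7, Cldn15, Cldn2, Cldn23, Cldn12, Cldn8, Cldn4, Cldn5 and Cldn1. The ranges of Cldn3 and Cldn7, of Cldn15 and Cldn2, of Cldn12 and Cldn8, and of Cldn8 and Cldn4 overlapped, so the order within these pairs was not fixed, and all other neighbors were apart. In humanized mice Cldn4 was above Cldn12 and Cldn8 in each of the 6 mice, which moved it from rank 8 to rank 6, and the other genes kept their order. This order rests on division by the deposited gene length: as shares of CPM without it, Cldn12 (4.78 and 4.11% in the germ-free and humanized group) stayed above Cldn4 (1.595 and 3.41%), and Cldn23 (2.63 and 5.21%) passed Cldn12. Of the neighbors in humanized mice, Cldn23 and Cldn4 were apart, as were Cldn4 and Cldn12, while Cldn2 and Cldn23 overlapped.

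Each claudin was then expressed as a share of the summed RPKM of the 10 genes in the same mouse, as a description without a test. The sum itself was 851 ± 65.6 RPKM in the germ-free group and 951 ± 119 RPKM in humanized mice. Cldn3 and Cldn7 together made up 67.8 ± 1.87% of it in germ-free and 67.0 ± 5.71% in humanized mice. The share of Cldn4 was 1.71 ± 0.26% in the germ-free group and 3.54 ± 0.40% in humanized mice, and that of Cldn23 was 2.75 ± 0.09% and 5.30 ± 0.38%. For both, every humanized mouse had a larger share than every germ-free mouse. The 4 most abundant claudins (Cldn3, Cldn7, Cldn15 and Cldn2) held 89.7 to 91.3% of the sum in the germ-free group and 86.4 to 88.1% in humanized mice. Most of the claudin mRNA consisted of the same 4 genes in both groups.

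**Figure D3:**
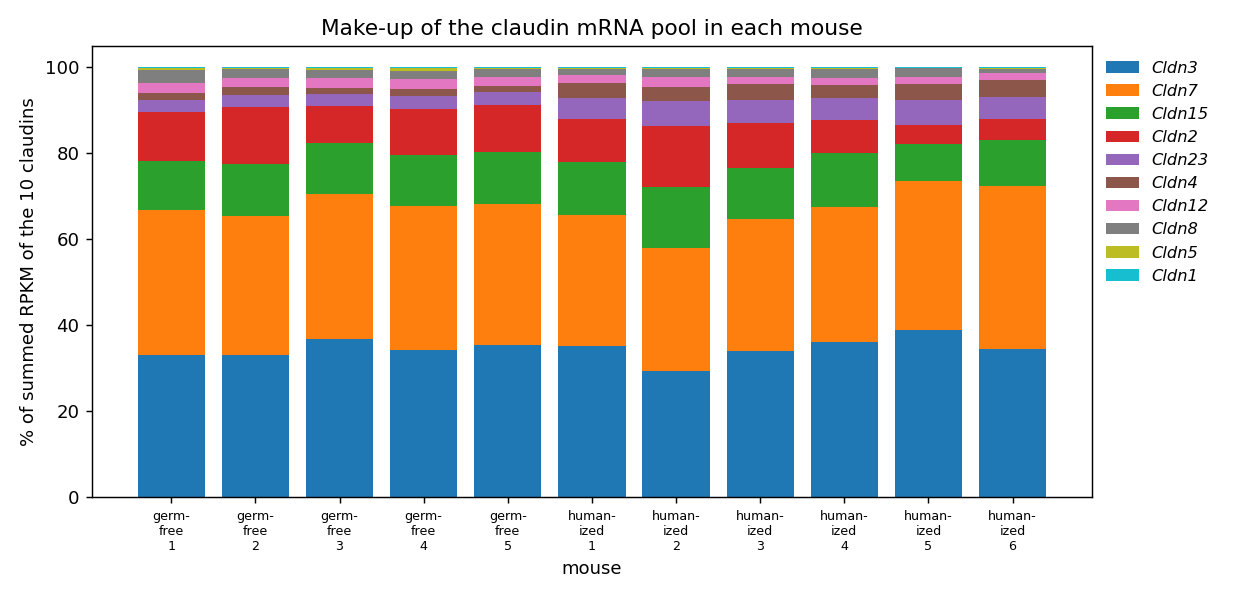
Share of each claudin gene in the summed RPKM of the 10 claudin genes (%), 1 bar per mouse for 5 germ-free and 6 humanized mice. The band of Cldn23 covers about 2.7% in germ-free and 4.9 to 5.8% in humanized mice, that of Cldn4 1.4 to 2.1% and 3.0 to 4.1%, and Cldn3 and Cldn7 fill over 50% of every bar.

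Ratios between claudins of the same mouse do not depend on how libraries are scaled. Cldn4 over Cldn3 was 0.0386 to 0.0628 in germ-free and 0.0829 to 0.119 in humanized mice, a mean ratio 2.06-fold higher. Cldn23 over Cldn7 was 0.0795 to 0.0868 in the germ-free group and 0.133 to 0.202 in humanized mice. Neither ratio overlapped between the groups. Cldn4 over Cldn23 was 0.623 ± 0.102 and 0.67 ± 0.089, and the groups overlapped in this ratio of the called genes to each other. Cldn2 over Cldn15, the ratio of the pore-forming claudins, was 0.717 to 1.08 in the germ-free group and 0.443 to 0.997 in humanized mice, and 3 humanized mice lay below the germ-free range.

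All of these claudins except Cldn5 are known from epithelial cells, so their levels were also set against the summed CPM of the 12 epithelial markers in the same mouse. This sum was 9292 to 12060 CPM in germ-free and 10390 to 14320 CPM in humanized mice, and 3 of the 12 markers were called higher (median LFC 0.23). Cldn4 amounted to 0.246 ± 0.0494% of this sum in germ-free and 0.477 ± 0.0636% in humanized mice, a mean 1.94-fold higher. Cldn23 amounted to 0.403 ± 0.0208% and 0.733 ± 0.0840%, 1.82-fold higher. For both genes all 6 humanized mice were above all 5 germ-free mice (exact permutation tests, two-sided, p = 0.00433 each). Cldn12 amounted to 0.733 ± 0.0667% and 0.577 ± 0.0716%, lower in 5 of 6 humanized mice than in any germ-free mouse (exact permutation test, p = 0.00866). Cldn1 amounted to 0.03 ± 0.0059% and 0.0158 ± 0.0079% (exact permutation test, p = 0.013). Its RPKM in humanized mice was highest in mouse 3 and lowest in mouse 5, as were the summed fibroblast markers (580 and 73.0 CPM). The epithelial sum was lowest in mouse 3 and highest in mouse 5. Which cells hold Cldn1 was not tested. For Cldn2, Cldn3, Cldn7, Cldn8 and Cldn15 the groups overlapped, with p from 0.117 to 0.481. The p-values are not adjusted over the 10 claudins.

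**Figure D4:**
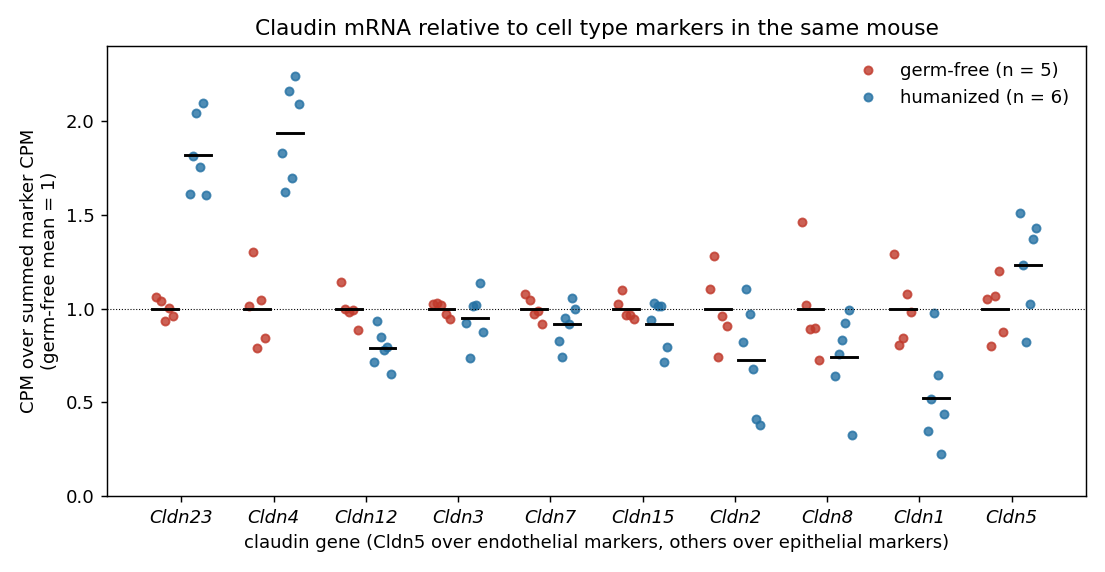
CPM of each claudin gene over the summed CPM of marker genes in the same mouse, scaled to a germ-free mean of 1, for 5 germ-free and 6 humanized mice with a bar at the group mean. Cldn5 is set over 10 endothelial markers and the others over 12 epithelial markers. Means in humanized mice are 1.82 for Cldn23, 1.94 for Cldn4, 0.788 for Cldn12 and 1.23 for Cldn5.

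Scaling mattered for the claudins near 0. With total counts in place of TMM, the LFC of all genes shifted by −0.185 in the median, and with scaling to the epithelial markers by −0.239. Under these scalings Cldn4 had an LFC of 1.02 and 0.96 and Cldn23 of 0.92 and 0.86, all with FDR below 0.01. Cldn12 was then called lower, with an LFC of −0.29 (FDR = 0.000826) and −0.34 (FDR = 0.0098). Over all genes, 3609 and 2914 were called lower under these scalings, against 1999 with TMM. The LFC of Cldn3, Cldn7 and Cldn15 changed sign under both, with values between −0.01 and −0.13 that were not called.

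Other cell types of the colon wall also differed between the groups, and their part in the claudin values was not tested. These counts stand beside 9.2% of all genes called higher and 10.1% called lower. Markers of surface colonocytes summed to 7458 to 8486 CPM in germ-free and 9159 to 14810 CPM in humanized mice, highest in mouse 5, and 4 of 9 were called higher. The LFC was below 0 for 2 of these 9 surface markers. Of 10 crypt markers 5 were called lower (Lgr5, Ascl2, Axin2, Sox9 and Smoc2) and none higher. The 5 crypt markers not called had LFC values from −0.02 to 0.23. The crypt sums overlapped, at 382 to 454 CPM in germ-free and 288 to 440 CPM in humanized mice. All 9 smooth muscle markers were called lower (median LFC −1.92), as were 5 of 7 fibroblast markers and 7 of 8 markers of enteric glia and neurons. Of 8 immune markers 3 were called higher, and 2 had an LFC below 0. Of 6 posterior Hox genes, which mark the position along the gut, 3 were tested and 2 were called lower. Humanized mouse 5 had the lowest sums of endothelial, smooth muscle, fibroblast, neural, crypt, immune and posterior Hox genes in its group, the highest epithelial and surface colonocyte sums, the highest value of 6 claudins (Cldn3, Cldn4, Cldn7, Cldn8, Cldn12 and Cldn23) and the lowest value of Cldn1, Cldn5 and Cldn15 in its group.

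Claudin levels spread more among humanized mice. The coefficient of variation of RPKM was larger in humanized mice for 8 of the 10 claudins, all except Cldn4 and Cldn15, with a median of 11.9% in germ-free and 20.9% in humanized mice. Over all genes tested the medians were 10.4% and 16.5%, also larger in humanized mice. The contrast was large for Cldn7, at 5.90% and 20.9%, and for Cldn12, at 2.67% and 10.0%.

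The table held 25 rows named as claudins, of which 15 were not among the 10 genes. Of these, 10 did not pass the filter, with at most 9 counts in any mouse, and Cldn16 had no count in any. The other 5 were tested and none was called. Cldn9 had 0.185 ± 0.111 RPKM in germ-free and 0.382 ± 0.169 RPKM in humanized mice (LFC 1.04, FDR = 0.106). Cldn10, Cldn14 and Cldn20 had group means between 0.0831 and 0.433 RPKM, and their LFC values were −0.52, 0.25 and −0.01 (FDR of 0.547, 0.647 and 1.0). The row named Cldn25 is annotated as Cldnd1, a claudin domain-containing gene, and had 14.5 ± 1.28 and 15.4 ± 1.75 RPKM (LFC 0.09, FDR = 0.556).

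Tight junctions also contain membrane, scaffold and polarity proteins that claudins assemble with, and 53 such partner genes with their known regulators were listed. Of these, 51 were tested, 5 were called higher and 5 lower, and the median LFC was 0.05, beside 9.2% and 10.1% called in the whole table. None of the 3 tetraspan partners of claudins was called. Ocln, which encodes occludin, had 30.8 ± 1.43 and 32.8 ± 6.52 RPKM in germ-free and humanized mice (LFC 0.09, FDR = 0.634), and Marveld2, which encodes tricellulin, had 18.4 ± 0.85 and 20.2 ± 3.54 RPKM (LFC 0.13, FDR = 0.410).

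Scaffold proteins of the zonula occludens link claudins to actin. Tjp3, which encodes ZO-3, rose from 64.6 ± 2.14 to 80.3 ± 10.2 RPKM (LFC 0.32, FDR = 0.00558), with groups that overlapped. Its call held in 6 of the 20 alternatives and not with total counts (LFC 0.13, FDR = 0.259) or scaling to epithelial markers (LFC 0.06, FDR = 0.636). Tjp1, which encodes ZO-1, had an LFC of −0.11 (FDR = 0.498) and was called lower with scaling to epithelial markers (LFC −0.37, FDR = 0.00178).

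Tricellular contacts are built by the angulins, and of the 3 listed 1 was called higher and 1 lower. Ildr1, which encodes angulin-2, was 39.9 to 45.4 RPKM in the germ-free group and 60.6 to 103 RPKM in humanized mice, without overlap (LFC 0.86, standard error 0.11, FDR = 7.84e-11). Its call held in all 20 alternatives, with LFC values from 0.60 to 0.92. Ildr2, which encodes angulin-3, fell by 1.57 on the log2 scale (FDR = 0.000505), from 0.257 ± 0.124 to 0.0862 ± 0.0408 RPKM. Its level was low, at most 0.477 RPKM in any mouse.

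Adhesion molecules of the junction moved in both directions. F11r, the junctional adhesion molecule JAM-A of epithelia, had 88.0 ± 1.84 and 103.4 ± 14.5 RPKM (LFC 0.23, FDR = 0.0531). Igsf5 (JAM4) was called higher (LFC 0.28, FDR = 0.00742), and its call held in 4 of 20 alternatives. Jam2 and Jam3, which are known from endothelial and stromal cells, were called lower, with LFC values of −1.45 (FDR = 0.000185) and −1.35 (FDR = 6.82e-05). The summed endothelial and fibroblast markers lay below the germ-free range in every humanized mouse, and their part in the values of Jam2 and Jam3 was not tested. Epcam, which encodes the adhesion protein that stabilizes claudin-7, had 753 ± 33.8 and 777 ± 125 RPKM (LFC 0.05, FDR = 0.816).

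Of the remaining roles, the polarity gene Crb3 was called higher (LFC 0.37, FDR = 0.00586), as was Hnf4a, a transcription factor of the intestinal epithelium (LFC 0.43, FDR = 0.000608). Neither was called with total counts (FDR of 0.136 and 0.0228) or with scaling to epithelial markers (FDR of 0.356 and 0.137). The call of Crb3 held in 8 of the 20 alternatives and was lost when any 1 germ-free mouse was left out (FDR from 0.0123 to 0.0301) or without humanized mouse 1 (FDR = 0.0114) or 6 (FDR = 0.0169), and that of Hnf4a held in 17. Wnk4, a kinase that phosphorylates claudins in the kidney, was called lower (LFC −0.28, FDR = 0.00326), and its call held in 17 of 20 alternatives but not without germ-free mouse 2 (FDR = 0.0171) or 3 (FDR = 0.0172). Zeb1, a repressor of epithelial junction genes that is itself expressed in stromal cells, was also called lower (LFC −1.21, FDR = 0.00112), and its call held in 18 of 20 alternatives but not with the quasi-likelihood test (FDR = 0.0117). None of the 4 proteases and inhibitors that act on Epcam and claudin-7 was called.

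**Figure D5:**
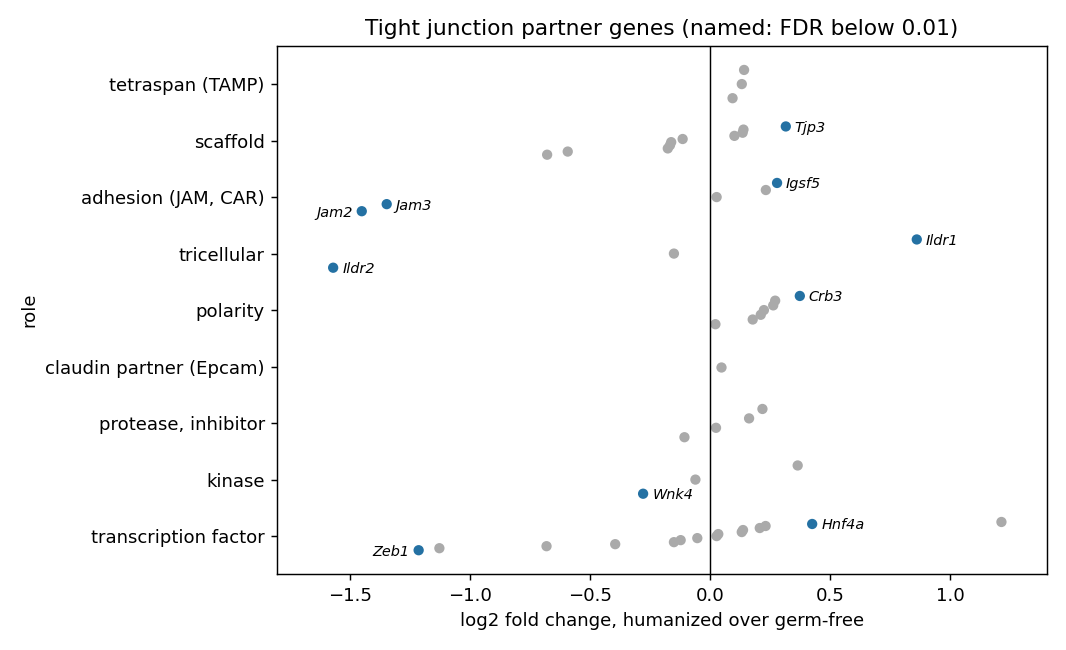
LFC (humanized over germ-free) of the 51 tested tight junction partner genes, grouped by role, 1 point per gene. The 10 genes with FDR below 0.01 are blue and named, 5 on each side of 0, and Ildr1 is the called gene farthest to the right at an LFC of 0.86.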

How the data were processed

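Paired-end reads of 101 bases were mapped by the authors to mm10 with TopHat (version 2.1.0, built on Bowtie version 2.2.3). Reads were assigned to genes with featureCounts of Subread 1.4.6-p5, and the deposited values are raw counts of 43346 genes with 1 column for each mouse. The deposited table also gives gene positions and a length, named a coding length, that equals the exon length of a GENCODE annotation of GRCm38 in 74.7% of genes. How it was made is not given in the sources used here, and RPKM depends on it. The library kit does not mark strand. Columns were assigned by their labels.

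The tests ran under R 4.3.3 in edgeR 4.0.16 and DESeq2 1.42.0, after the methods of the study. Low counts were removed by the default settings of filterByExpr (min.count of 10, min.total.count of 15). After TMM scaling, edgeR's exact test was used at a Benjamini–Hochberg FDR below 0.01 over all 19863 genes. Standard errors and 95% intervals came from the quasi-likelihood fit. Values per mouse were compared by exact permutation tests. The scripts were tested on simulated data. Alternatives were DESeq2's Wald test or the quasi-likelihood test, scaling by RLE, upper quartiles, total counts or epithelial markers, no filter or a floor of 10 counts per mouse, an FDR of 0.05, a minimum absolute LFC of 1, leaving out single mice, and a replicate block. Other alternatives were CPM in place of RPKM for the shares and a log2(RPKM + 0.1) scale for the permutation test.

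The 10 claudins, the partner genes and the marker lists were chosen with earlier results of these data known. All 10 claudins are described, other rows named as claudins are named where they passed the filter, and partner genes are named where called, or as one of Ocln, Tjp1, Tjp3, Marveld2, F11r and Epcam. This list is given without 1 further gene of the rule, which is not reported here, and the other partner genes enter the counts without being named. Whether mice shared a litter or an isolator was not given, so the p-values take the mice as independent, which could not be checked. Promoter sequences were taken from RefSeq, and exons from GENCODE.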

Additional observations from a re-analysis of the deposited data

Results flagged for a closer look

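Of 20 sets of RPKM values (10 claudins in each group), 2 held a mouse far from the others of its group by Dixon's test, where chance gives about 1 in 20. Both were humanized mouse 5. Its Cldn5 value of 0.655 RPKM was the lowest of its group, with the next at 2.446 RPKM, a gap of 0.649 of the whole range. Its Cldn23 value of 65.28 RPKM was the highest of its group, with the next at 49.43 RPKM, a gap of 0.827 of the range. The same mouse had 21.9 CPM of summed endothelial markers, where the other humanized mice had 74.4 to 156.5 CPM, and its part in either value was not tested beyond leaving the mouse out.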

How the results depend on the processing

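Cldn4 and Cldn23 were called higher under all 20 alternatives run for them, with LFC values from 0.96 to 1.34 and from 0.86 to 1.14. The number of claudins called lower changed from 0 to 1 with total counts and with scaling to epithelial markers (Cldn12), with FDR below 0.05 (Cldn1), and without humanized mouse 3 (Cldn1), so it ranged from 0 to 1 when each mouse was left out. Of all 19863 genes, 3609, 2914, 2905 and 2323 were called lower in these settings, in the same order, against 1999 in the main test. For other results the cause of a change was not tested unless the alternative itself sets it.

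With total counts, LFC values changed sign for Cldn3 (−0.012), Cldn7 (−0.061), Cldn15 (−0.076), Ocln (−0.10), Marveld2 (−0.060), Epcam (−0.15) and Cldn25 (−0.10). With scaling to epithelial markers they did so for Cldn3 (−0.073), Cldn7 (−0.13), Cldn15 (−0.12), Ocln (−0.17), Marveld2 (−0.12), F11r (−0.020), Epcam (−0.21), Cldn25 (−0.16) and Cldn14 (−0.016). None of these genes was called in either direction under the scaling named. When each mouse was left out, the LFC ranged from −0.013 to 0.16 for Ocln, from −0.029 to 0.10 for Epcam and from −0.26 to 0.26 for Cldn20. It kept its sign but moved from −0.40 to −0.14 for Cldn2, from 0.045 to 0.20 for Cldn7 and from −0.32 to −0.031 for Cldn8.

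The count of partner genes called higher was 5, and it was 2 with the quasi-likelihood test, 8 with DESeq2, 1 with total counts, 1 with epithelial scaling, 2 without a filter, 10 with FDR below 0.05 and 0 with an absolute LFC above 1, and it ranged from 2 to 7 with each mouse left out. The count called lower was 5, and it was 9 with total counts, 9 with epithelial scaling and 4 to 8 with each mouse left out (8 without humanized mouse 3). Over all genes, 1827 were called higher, against 773 with total counts, 523 with epithelial scaling, 2780 with FDR below 0.05 and 405 with an absolute LFC above 1. The 1999 called lower became 1298 with the quasi-likelihood test, 3609 with total counts and 2914 with epithelial scaling. They became 2905 with FDR below 0.05 and 1273 with an absolute LFC above 1. The shares of the claudins in their summed level depend on the length: as CPM, Cldn3 was at 22.5% and Cldn2 at 18.9% in the germ-free group.

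Replicate numbers do not pair the mice: same-numbered mice had correlations of their deviations between −0.133 and 0.091, and 1 of 5 germ-free mice correlated best with its own number. With the replicate number as a block, Cldn4 (LFC 1.16, FDR = 0.00556) and Cldn23 (LFC 1.10, FDR = 0.000498) stayed called and no claudin was called lower. Partner genes called were then 1 higher (Ildr1) and 0 lower, and over all genes 506 were called in each direction.

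Levels near or under 1 RPKM (Cldn1, Cldn9, Cldn10, Cldn14 and Cldn20) rest on few counts and have wide intervals. RNA of whole colon does not show which cells hold a transcript, and mRNA does not give the amount of protein in a junction.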
